A study of Homo sapiens with 6 samples.

Results

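The genes described here are 10 factors and markers of the epithelial-mesenchymal transition (EMT), taken by their symbols from the 23152 genes of the count and RPKM tables. They comprise 5 transcription factors (SNAI1, SNAI2, TWIST1, ZEB1 and ZEB2), 3 cadherins (CDH1, CDH2 and CDH11) and 2 mesenchymal markers, VIM and FN1. RNA was sequenced from T24, an established human bladder cancer (BLCA) cell line, in 3 samples labelled vector and 3 samples labelled oeRNF112. RNF112 is an E3 ubiquitin ligase, and the study used RNA sequencing to look for the mechanism by which it acts on bladder cancer cells. All 6 samples were grown in the same serum-containing medium. The study describes T24 cells transfected with RNF112 plasmids and T24 lines made with lentivirus, and which of these was sequenced was not given in the sources used here. The treatment protocol given with the samples names siRNA, and the time to harvest was not given.

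EMT is the program through which epithelial cells loosen their junctions and gain the shape and motility of mesenchymal cells. Factors of the SNAI, ZEB and TWIST families bind E-box sequences, and SNAI and ZEB proteins repress CDH1, which encodes E-cadherin, the adhesion molecule of epithelial sheets. As E-cadherin is lost, cells often gain N-cadherin (CDH2), the intermediate filament protein vimentin (VIM) and the matrix glycoprotein fibronectin (FN1). T24 is widely used as a mesenchymal-like, invasive bladder cancer line.

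The libraries held between 40029547 and 41259569 counted reads, so the groups had nearly the same depth. A count of 3 reads, the limit that a count of 0 allows, corresponded to between 0.0709 and 0.0777 CPM (counts relative to library size, scaled by edgeR's TMM factors), which covers counting error only. RNF112 had 27, 19 and 24 counts in vector and 29753, 36963 and 31712 counts in oeRNF112, so that the gene was higher by 10.37 on the log2 scale (SE 0.177, edgeR's quasi-likelihood test, adjusted p = 7.4e-10). Transcripts of the introduced construct may be among these reads. The labels do not say whether the 3 samples of a group came from separate cultures, so the p-values measure the spread between these samples, which may be technical.

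Among the 10 genes, the mRNAs of both SNAI factors were higher in oeRNF112 and that of N-cadherin was lower. SNAI1 rose 2.96-fold from a very low level, SNAI2 rose 1.45-fold from a high one, and CDH2 fell by 26.2%. ZEB1, ZEB2, VIM and FN1 were abundant enough to test but did not pass an adjusted p of 0.05. TWIST1, CDH1 and CDH11 had too few reads for the filter on low counts. Over all 14467 genes tested, 9.97% were called higher and 8.14% lower, against 2 higher and 1 lower of the 7 EMT genes tested. The values of the 3 vector and 3 oeRNF112 samples did not overlap for 3 of the 7, the same 3 genes, against 36.8% of all genes tested. On the log2 scale, the middle fold change of these 7 was 0.19, and that of all genes tested was 0.00267.

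The levels of the 10 genes ran from no reads to those of the most abundant mRNAs. RPKM, which divides by gene length, was used to order them, and no test was made between genes. VIM, the filament protein that defines mesenchymal cells, had an RPKM of 1961 ± 113 in vector and 1814 ± 196 in oeRNF112 (SD, n = 3 each) and stood at the 99.9 percentile of all genes by its vector level. FN1 followed at 173 ± 48.5 and 142 ± 22.3 RPKM, at the 98.7 percentile. CDH2 and SNAI2 came next and overlapped in vector, at 24.8 to 30.1 and 24.6 to 26.2 RPKM. In oeRNF112 they no longer overlapped, with SNAI2 at 38.3 to 40.3 RPKM above CDH2 at 18.0 to 24.3 RPKM. ZEB1 at 3.51 ± 0.942 RPKM and ZEB2 at 1.97 ± 0.487 RPKM in vector were well below SNAI2, and the lowest ZEB1 sample lay just above the highest ZEB2 sample. SNAI1 was lower again at 0.193 ± 0.0436 RPKM. TWIST1 at 0.0350 ± 0.0225 RPKM, CDH11 at a mean of 0.0110 RPKM and CDH1, listed at 0 in all 3 vector samples, closed the order, and TWIST1 and CDH11 overlapped.

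**Figure D1:**
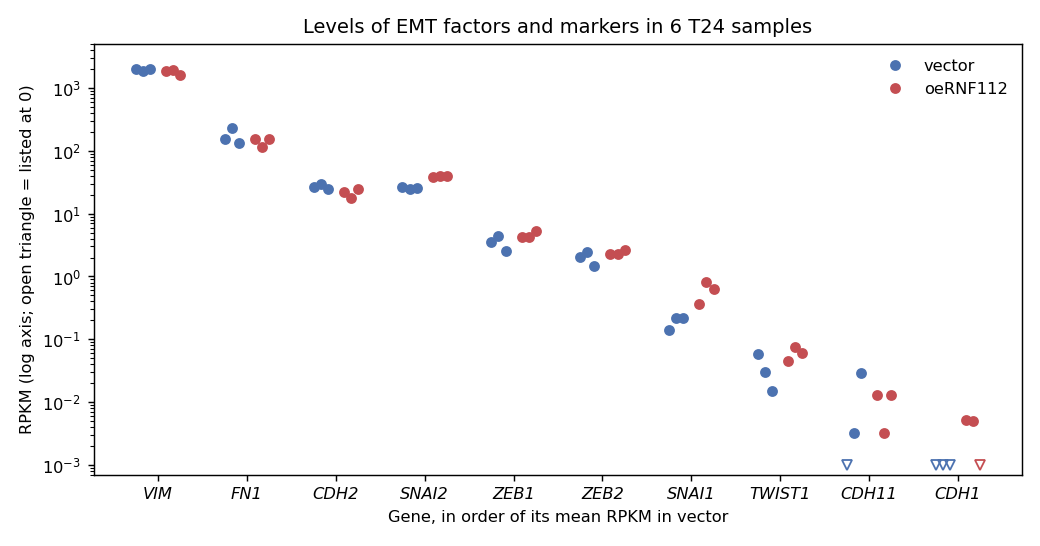
RPKM of the 10 EMT genes in each of the 6 samples on a log axis, ordered by their mean in vector, with vector in blue and oeRNF112 in red and with replicates 1, 2 and 3 from left to right in each group. VIM stands highest at 1961 RPKM in vector, CDH2 and SNAI2 swap places between the groups, and CDH1 is listed at 0 in all 3 vector samples.

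SNAI1, the gene of the Snail repressor on chromosome 20 (49982980 to 49988886, GRCh38.p14), was close to silent in vector, with 10, 15 and 15 reads in the 3 samples. In oeRNF112 it had 25, 57 and 44 reads. The groups did not overlap, although replicate 1 of oeRNF112 held less than the other 2 samples of its group. As CPM, the level went from 0.339 ± 0.0748 to 1.01 ± 0.393 (SD, n = 3 each). The log2 fold change was 1.57 (standard error 0.391, 95% interval 0.70 to 2.44), with an adjusted p of 0.0224 from edgeR's quasi-likelihood test. The call was lost without vector replicate 1, oeRNF112 replicate 2 or oeRNF112 replicate 3 (edgeR, adjusted p of 0.0942, 0.0632 and 0.0637), with log2 fold changes between 1.28 and 1.83 over the 6 fits that each left out a sample.

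SNAI2, which encodes the related repressor Slug, lies on chromosome 8 (48917598 to 48921429, GRCh38.p14) and was by far the most abundant of the 5 factors. It had 2353, 2173 and 2288 reads in vector and 3340, 3563 and 3542 reads in oeRNF112. Every oeRNF112 sample lay above every vector sample, and the samples within each group were close together. The level was 57.7 ± 2.92 CPM in vector and 83.6 ± 3.05 CPM in oeRNF112 (SD, n = 3 each). The log2 fold change of 0.54 had a standard error of 0.0848 and a 95% interval of 0.35 to 0.72 (edgeR's quasi-likelihood test, adjusted p = 0.00291). SNAI2 was called higher in all 9 other settings and in all 6 fits that left out a sample, the only EMT gene of the 10 for which this was so.

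The ratio of these paralogs was lower in the oeRNF112 samples. The RPKM of SNAI2 was 184, 113 and 119 times that of SNAI1 in the vector samples. In oeRNF112 it was 104, 48.9 and 63.0 times that of SNAI1. These ratios do not depend on how the libraries were scaled, and the groups did not overlap, although 104 and 113 were close and SNAI1 had only 10 to 57 reads a sample. The ratio was chosen after the values were seen and was not tested, and the intervals of the SNAI1 and SNAI2 fold changes overlap. SNAI2 still made up most of the summed RPKM of the 5 factors, at 82.0%, 77.6% and 85.9% in vector and 84.7%, 84.5% and 82.3% in oeRNF112, where the groups overlapped.

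ZEB1 (chromosome 10, 31318417 to 31529804) and ZEB2 (chromosome 2, 144384081 to 144520119) encode zinc finger homeobox factors that act as E-box repressors. ZEB1 had 30.4, 36.8 and 21.9 CPM in vector and 33.4, 33.8 and 41.5 CPM in oeRNF112. ZEB2 had 19.4, 22.9 and 14.3 CPM in vector and 20.3, 21.0 and 23.5 CPM in oeRNF112. For both genes the groups overlapped, vector replicate 3 was the lowest sample and oeRNF112 replicate 3 the highest. The log2 fold change of ZEB1 was 0.29 (95% interval -0.096 to 0.67, adjusted p = 0.272 from edgeR's test). That of ZEB2 was 0.19 (95% interval -0.16 to 0.55, adjusted p = 0.421 from the same test). These intervals hold both a small decrease and an increase about as large as that of SNAI2. Without vector replicate 2, ZEB1 had a log2 fold change of 0.47 and passed the threshold (edgeR, adjusted p = 0.0374), while without oeRNF112 replicate 3 it had 0.18 (0.583). Without vector replicate 3, the log2 fold changes of ZEB1 and ZEB2 were 0.11 and 0.03 (edgeR, adjusted p = 0.606 and 0.887). Those of ZEB2 were 0.36 without vector replicate 2 and 0.13 without oeRNF112 replicate 3 (edgeR, adjusted p = 0.0905 and 0.691).

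Both ZEB genes ranked the samples alike within each group, replicate 2 above 1 above 3 in vector and replicate 3 above 2 above 1 in oeRNF112. This order may not be particular to the ZEB pair. Over all genes tested, deviations from the group mean correlated at 0.359 between vector replicate 2 and oeRNF112 replicate 3. Between vector replicate 3 and oeRNF112 replicate 3 they correlated at -0.296. The ratio of the ZEB genes moved little, with ZEB1 at 1.77, 1.81 and 1.73 times the RPKM of ZEB2 in vector and at 1.86, 1.82 and 2.00 times in oeRNF112. The oeRNF112 ratios were all above the vector ratios, and no test was made. ZEB1 shares its locus with the antisense gene ZEB1-AS1, which had 1.18 ± 0.0992 RPKM in vector and 1.39 ± 0.0649 RPKM in oeRNF112. The library kit keeps strand, but the strand setting of the counting was not given in the sources used here, so reads of such overlapping pairs may not be separated.

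TWIST1, a basic helix-loop-helix factor of EMT on chromosome 7 (19113047 to 19117636), had 4, 2 and 1 reads in vector and 3, 5 and 4 reads in oeRNF112. The groups overlapped, and with 19 reads in all a difference was not detectable at this depth.

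CDH2 encodes N-cadherin, the cadherin of neural and mesenchymal cells, and lies on chromosome 18 (27932879 to 28177130). It had 5047, 5594 and 4590 reads in vector, or 127.6, 139.9 and 119.0 CPM. In oeRNF112 it had 4052, 3350 and 4492 reads, or 97.8, 81.5 and 106.1 CPM. The lowest vector sample lay above the highest oeRNF112 sample, so the groups did not overlap. The means were 128.8 ± 10.5 and 95.1 ± 12.5 CPM (SD, n = 3 each). The log2 fold change was -0.44 (standard error 0.112, 95% interval -0.69 to -0.19), with an adjusted p of 0.0252 from edgeR's quasi-likelihood test. With library totals in place of TMM factors the log2 fold change was -0.34 and the call was lost (edgeR, adjusted p = 0.0817), as it was without vector replicate 1, oeRNF112 replicate 1 or oeRNF112 replicate 2 (0.102, 0.0769 and 0.0706).

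The ratio of CDH2 to SNAI2 is free of library scaling. CDH2 had 1.02, 1.22 and 0.954 times the RPKM of SNAI2 in the vector samples. In the oeRNF112 samples the ratios were 0.577, 0.447 and 0.603, and the groups did not overlap. This separation was given in advance, because CDH2 and SNAI2 each had no overlap between groups, in opposite directions. The ratio therefore adds nothing on CDH2 alone. The ratio was chosen after the values of both genes were known, and it was not tested.

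E-cadherin mRNA was close to absent in both groups. CDH1, on chromosome 16 (68737292 to 68835537), had 0, 0 and 0 reads in vector and 1, 1 and 0 reads in oeRNF112. With 2 reads in 6 libraries, every sample was below the limit of 3 reads, no fold change can be given, and a change in E-cadherin mRNA was not detectable at this depth. CDH11, the gene of osteoblast cadherin on the same chromosome (64943753 to 65123744), had 0, 1 and 9 reads in vector and 4, 1 and 4 reads in oeRNF112. Its groups overlapped, and vector replicate 3 alone held 9 of its 19 reads. Among the reads of these 3 cadherins, CDH2 therefore had at least 99.8% in every sample.

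VIM (chromosome 10, 17228241 to 17237593) had 4540, 3998 and 4588 CPM in vector and 3936, 4173 and 3274 CPM in oeRNF112. The groups overlapped, since vector replicate 2 lay below oeRNF112 replicate 2. The log2 fold change was -0.21 (standard error 0.117, 95% interval -0.47 to 0.055, adjusted p = 0.25 from edgeR's test). VIM alone took 0.435%, 0.395% and 0.439% of all counted reads in vector and 0.408%, 0.423% and 0.343% in oeRNF112. Its antisense neighbour VIM-AS1 had 2.44 ± 0.432 and 2.73 ± 0.623 RPKM in vector and oeRNF112, far below VIM.

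FN1 (chromosome 2, 215360865 to 215436068) encodes fibronectin, which mesenchymal cells lay down in the matrix. It had 1385, 1972 and 1212 CPM in vector and 1288, 982 and 1256 CPM in oeRNF112. Vector replicate 2 stood above the other 5 samples, and the groups overlapped. The log2 fold change was -0.37 (standard error 0.176, 95% interval -0.77 to 0.017, adjusted p = 0.168 from edgeR's test). Without vector replicate 2 it was -0.15 (edgeR, adjusted p = 0.444). VIM and FN1 ran opposite to each other across the vector samples, where VIM was 13.0, 8.05 and 15.0 times FN1 in RPKM. The same ratio was 12.1, 16.9 and 10.4 in oeRNF112, within the range of vector but for replicate 2.

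**Figure D2:**
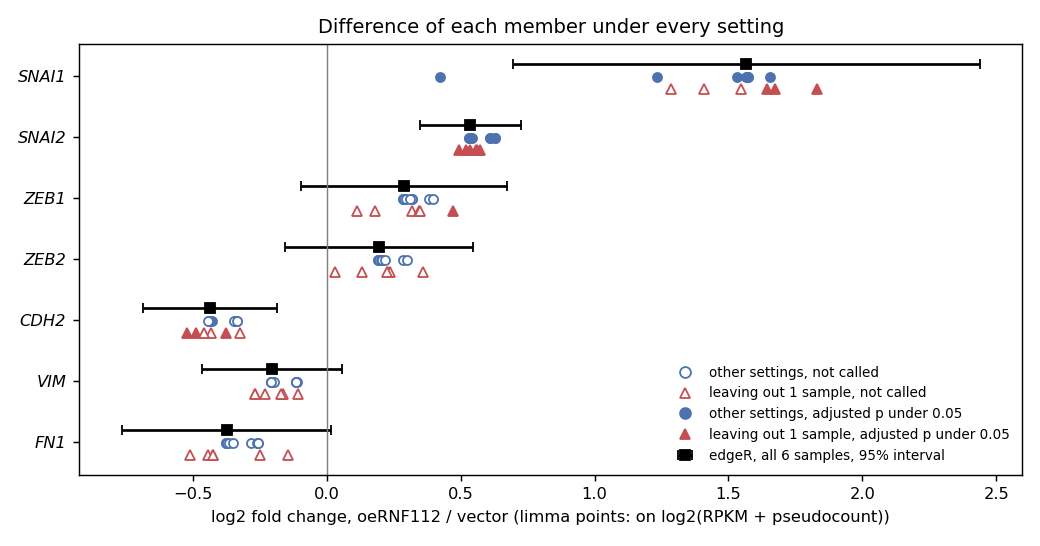
Log2 fold change (oeRNF112 over vector) of the 7 EMT genes tested, with black squares and 95% intervals for edgeR on all 6 samples, circles for other settings and triangles for fits that leave out 1 sample, filled where the adjusted p was under 0.05. SNAI2 is filled throughout, SNAI1 and CDH2 are filled in part, ZEB1 is filled only without vector replicate 2, and the SNAI1 circle at 0.42 is on the log2(RPKM + 1) scale, which understates low genes.

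The upstream sequence of CDH2 is shown because CDH2 is the gene called lower here, and that of ZEB1 because it holds the letters CAGGTG, a known core of SNAI and ZEB binding. RefSeq windows (GRCh38.p14) were at hand for 5 of the 10 genes, namely ZEB1, ZEB2, CDH2, VIM and FN1. SNAI1, SNAI2, TWIST1, CDH1 and CDH11 are named only. Each window is the 250 bases before an annotated start, written 5′ to 3′ on the strand of the gene, with the E-box letters CANNTG in capitals. CANNTG reads the same on both strands, and it includes CACCTG and its reverse complement CAGGTG. The windows are chr18:28177131-28177380 on the minus strand for CDH2 and chr10:31318167-31318416 on the plus strand for ZEB1.
CDH2: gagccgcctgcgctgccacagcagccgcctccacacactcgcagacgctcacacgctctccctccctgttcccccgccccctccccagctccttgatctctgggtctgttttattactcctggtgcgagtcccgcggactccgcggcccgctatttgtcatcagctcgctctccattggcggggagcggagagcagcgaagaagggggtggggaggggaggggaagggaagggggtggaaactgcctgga
ZEB1: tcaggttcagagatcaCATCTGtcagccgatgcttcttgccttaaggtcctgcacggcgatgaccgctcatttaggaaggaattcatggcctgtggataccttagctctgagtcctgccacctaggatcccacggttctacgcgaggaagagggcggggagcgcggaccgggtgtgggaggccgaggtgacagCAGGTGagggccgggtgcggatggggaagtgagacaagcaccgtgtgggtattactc
Both genes have other annotated starts, with 2 windows for CDH2 and 7 for ZEB1, and those shown lie farthest upstream. The CDH2 window shown held no CANNTG, and its other window held 1, which was not CACCTG or CAGGTG. The ZEB1 window shown held 2, of which 1 was CAGGTG, beginning 57 bases before the start. Of the other 6 ZEB1 windows, 1 held 2 matches to CACCTG or CAGGTG and the others held none. Over all 35116 windows of 250 bases, 61.8% held CANNTG and 17.5% held CACCTG or CAGGTG. These shares are for single windows, and ZEB1 had 7 windows in which a match could occur. The windows of VIM and FN1 held neither form, and that of ZEB2 held 1 CANNTG and no CACCTG or CAGGTG. A match is a description of letters, and no match says only that the letters are not in this window.

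Around these 10 genes, 15 lists of EMT-related genes and cell type markers were counted in the same fit. They name 200 other genes, of which 188 were in the tables and 142 were tested. Of the 142 genes, 17 (12.0%) were called higher and 18 (12.7%) lower, against 9.97% and 8.14% of all genes tested.

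Among 13 other EMT transcription factors tested, SNAI3 was called higher and SOX9 and HMGA2 lower, with a median of -0.10. SNAI3, the remaining SNAI paralog, had 32, 43 and 25 reads in vector and 54, 70 and 82 in oeRNF112 (log2 fold change 0.96, adjusted p = 0.0405, edgeR). All 3 SNAI genes were thus called higher with all samples. Of the 6 fits that left out a sample, SNAI2 kept its call in all, SNAI1 in 3 and SNAI3 in only 1. SOX9, a factor of progenitor cells, went from 6147, 6815 and 5952 reads to 4604, 3938 and 3911 reads (log2 fold change -0.68, adjusted p = 0.00171, edgeR). HMGA2, an architectural chromatin protein that can induce SNAI1, fell by 0.33 on the log2 scale (edgeR, adjusted p = 0.0376) and lost this call in all 6 fits that left out a sample.

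Snail protein is short-lived and is controlled by phosphorylation and ubiquitination. Of 16 genes listed for its turnover, FBXO45, an F-box protein of a ubiquitin ligase, was called higher, none was called lower, and the median was 0.096. FBXO45 had a log2 fold change of 0.55 (edgeR, adjusted p = 0.00585) and went from 6.75 ± 0.122 to 10.5 ± 1.35 RPKM. The kinase genes GSK3A and PAK1 were the most abundant of the list, at 20.8 ± 1.05 and 20.5 ± 0.514 RPKM in vector and 21.1 ± 0.922 and 23.8 ± 0.608 RPKM in oeRNF112. Protein levels were not measured in these libraries. By Western blot of bladder cancer cells overexpressing RNF112, the study reports lower Snail, N-cadherin and vimentin and higher E-cadherin. Those are protein levels, while the values here are mRNA.

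Of 12 co-repressors that SNAI and ZEB proteins recruit, 2 were called lower and none higher, with a median of -0.073. They were EHMT2 and SUV39H1, both histone H3 lysine 9 methyltransferases. EHMT2 had 2669, 2668 and 2636 reads in vector and 2178, 2193 and 2196 reads in oeRNF112 (log2 fold change -0.36, adjusted p = 0.0135, edgeR). SUV39H1 fell by 0.39 on the log2 scale (edgeR, adjusted p = 0.031). The SUV39H1 call held in 4 of 9 other settings and in 1 of the 6 fits that left out a sample, and the EHMT2 call in 8 of 9 and in 3 of 6. With the replicate block neither was called (edgeR, adjusted p = 0.16 for SUV39H1 and 0.142 for EHMT2). KDM1A and HDAC1 were the most abundant, at 31.1 ± 0.744 and 66.0 ± 1.79 RPKM in vector and 32.5 ± 1.25 and 59.2 ± 4.26 RPKM in oeRNF112.

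TGF-beta is a main inducer of EMT. Of 10 genes of its ligands, receptors and SMADs, TGFBR3, the co-receptor betaglycan, was called higher, with 149, 223 and 113 reads in vector and 358, 307 and 440 in oeRNF112 (log2 fold change 1.11, adjusted p = 0.0094, edgeR). The other 9 were not called, and the median was -0.05. TGFBR2, the ligand-binding receptor, and SMAD3 had 66.6 ± 10.1 and 43.7 ± 4.57 RPKM in vector and 62.4 ± 4.57 and 42.7 ± 4.89 RPKM in oeRNF112.

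Although CDH1 was near 0, other epithelial junction genes were expressed. Of 20 tested, 1 was called higher and 3 lower, with a median of 0.099. CXADR, with 7, 9 and 3 reads in vector and 10, 15 and 17 in oeRNF112, passed the filter only through the oeRNF112 samples. EPCAM, an epithelial adhesion molecule, had 94, 66 and 99 reads in vector and 143, 183 and 165 in oeRNF112 (log2 fold change 0.84, adjusted p = 0.0208, edgeR). PPL, which encodes the desmosomal linker periplakin, went from 1637, 1793 and 1426 reads to 860, 786 and 919 (0.5 of the vector level, adjusted p = 0.000402, edgeR). The tight junction gene CLDN1 fell by 0.33 on the log2 scale (adjusted p = 0.0242, edgeR). Leaving out a sample kept the calls of EPCAM and CLDN1 in 3 of 6 fits each and that of PPL in all 6. DSG2, a desmosomal cadherin among the most abundant genes of the list, had 50.8 ± 13.4 RPKM in vector and 57.8 ± 4.72 RPKM in oeRNF112.

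Of 16 regulators of the epithelial program in the tables, 8 had reads enough to test, of which 3 were called higher and 1 lower, and the median was 0.54. OVOL2, which is part of this median, had 10, 4 and 11 reads in vector and 19, 18 and 27 in oeRNF112. It passed the filter on low counts only through the oeRNF112 samples, which raises the median. GRHL1, a grainyhead factor of epithelia, had 81, 79 and 67 reads in vector and 164, 149 and 195 in oeRNF112 (log2 fold change 1.08, adjusted p = 0.0034, edgeR). ESRP1, an epithelial splicing factor, and SPINT1, an inhibitor of surface serine proteases, had log2 fold changes of 0.83 and 0.71 (edgeR, adjusted p = 0.0438 and 0.0021). AP1M2, the epithelial clathrin adaptor subunit, fell by 0.45 on the log2 scale (edgeR, adjusted p = 0.0372). Of the 6 fits that left out a sample, the ESRP1 call held in 1, that of AP1M2 in 2 and those of GRHL1 and SPINT1 in all. GRHL1 and ESRP1 were low in both groups, at 0.480 ± 0.0441 and 0.344 ± 0.104 RPKM in vector, and ST14, PRSS8, GRHL2, GRHL3, OVOL1, ELF5, RAB25 and TP63 were below the filter on low counts.

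Other cadherins changed in both directions, with 2 of 8 called higher, 2 lower and a median of 0.22. CDH3, which encodes P-cadherin, an epithelial cadherin beside CDH1 on chromosome 16, had 33, 24 and 41 reads in vector and 94, 65 and 83 in oeRNF112 (log2 fold change 1.22, adjusted p = 0.0158, edgeR). CDH24 had a log2 fold change of 0.54 (edgeR, adjusted p = 0.0303). CDH10 went from 254, 302 and 261 reads to 130, 140 and 137 reads (log2 fold change -1.08, adjusted p = 0.00107, edgeR), and CDH13, the membrane-anchored T-cadherin, fell by 0.41 on the log2 scale (edgeR, adjusted p = 0.0131). Of the 6 fits that left out a sample, the CDH24 call held in 3, those of CDH3 and CDH13 in 4 each and that of CDH10 in all. CDH4, or R-cadherin, had 11.03 ± 0.901 RPKM in vector and 13.1 ± 1.71 RPKM in oeRNF112. Of 10 catenins and linkers that tie cadherins to actin, CTNNB1 (beta-catenin) alone was called lower (log2 fold change -0.29, adjusted p = 0.0345, edgeR), and the median was 0.0012. The CTNNB1 call held in 3 of 9 other settings and in 1 of the 6 fits that left out a sample. CTNNA1 and VCL, the most abundant, had 115 ± 4.75 and 104 ± 13.7 RPKM in vector and 117 ± 1.99 and 112 ± 13.5 RPKM in oeRNF112.

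The list of other mesenchymal markers held calls both ways, 6 higher and 3 lower of 22 tested, with a median of -0.027. CNN1, among the 6 called higher, had 3, 5 and 14 reads in vector and 31, 31 and 33 in oeRNF112. It passed the filter on low counts only through the oeRNF112 samples. NT5E, the ectonucleotidase CD73, and BGN, the matrix proteoglycan biglycan, had log2 fold changes of 0.50 and 1.12 (edgeR, adjusted p = 0.00401 and 0.0148). SPARC, a matrix glycoprotein, went from 12570, 12156 and 11810 reads to 7563, 7207 and 6956 reads (log2 fold change -0.83, adjusted p = 0.0003, edgeR). PMEPA1, a TGF-beta target that dampens SMAD signalling, fell by 1.13 on the log2 scale (edgeR, adjusted p = 0.0003). TPM2, a tropomyosin, had 217 ± 29.8 RPKM in vector and 183 ± 20.4 RPKM in oeRNF112. None of the 4 intermediate filament partners of vimentin that were tested was called, with a median of -0.084, and PLEC (plectin) and SYNC had 31.1 ± 6.05 and 1.68 ± 0.17 RPKM in vector. DES, GFAP and PRPH of this list were below the filter on low counts. PRPH, chosen after its values were seen, had 1, 1 and 1 reads in vector and 9, 20 and 20 in oeRNF112. Neither of the 2 antisense partners tested, ZEB1-AS1 and VIM-AS1, was called.

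Markers of other cell types were counted because fibroblasts express VIM, FN1, SNAI2 and ZEB1. Of 10 fibroblast markers 4 were tested, PDGFRA was called higher and none lower. PDGFRA passed the filter on low counts only through the oeRNF112 samples, and its call held in 5 of 7 other settings. The summed level of the 10 fibroblast markers was 9.83 to 12.1 CPM in vector and 12.9 CPM in each oeRNF112 sample. PDGFRA had 1, 3 and 8 reads in vector and 19, 29 and 19 in oeRNF112. COL1A1 had 262, 345 and 360 reads in vector and 418, 421 and 399 in oeRNF112. PDGFRB had 110, 126 and 77 reads in vector and 89, 64 and 110 in oeRNF112. Neither COL1A1 nor PDGFRB was called (edgeR, adjusted p = 0.21 and 0.381). COL3A1 had 27 reads summed over vector and 38 over oeRNF112, and LUM had 6 and 1. COL1A2, DCN, FAP, DPT and CXCL12 were at or near 0 with at most 3 reads a group. Of 9 leukocyte markers 4 were tested and LAPTM5 was called lower (log2 fold change -0.88, adjusted p = 0.0308, edgeR). LAPTM5 kept this call in 2 of the 6 fits that left out a sample. The summed levels of the leukocyte markers were 9.74 to 10.97 CPM in vector and 5.50 to 10.9 CPM in oeRNF112. LYZ had 97 reads in oeRNF112 replicate 1 and between 2 and 8 in the other samples, and this gene was chosen after its values were seen. EGFL7 was the 1 endothelial marker of 6 with reads enough to test and was called higher (log2 fold change 0.77, adjusted p = 0.00929, edgeR). The summed levels of the 6 were 13.7 to 20.2 CPM in vector and 26.3 to 32.9 CPM in oeRNF112. Nearly all of this sum was EGFL7 itself, at 13.1 to 19.9 and 25.6 to 32.5 CPM. CDH5 had at most 10 reads a sample, with 17 reads summed over vector and 6 over oeRNF112. The part of these markers in the differences of the EMT genes was not tested.

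The identity of the cells was checked with 11 urothelial and carcinoma markers. KRT8, KRT18 and KRT7, keratins of simple epithelia and urothelium, had 604 ± 61.4, 744 ± 79.4 and 521 ± 68.7 RPKM in vector, in the same libraries that held VIM at 1961 RPKM. The defining markers of terminal urothelium UPK2, UPK3A and KRT20 had at most 14 reads summed over the vector samples. UPK1A, another uroplakin gene, had 17, 16 and 5 reads in vector and 20, 15 and 4 in oeRNF112. Of 8 tested, 3 were called lower and none higher, with a median of -0.25. KRT18 and KRT7 fell by 0.51 and 0.48 and FOXA1, a factor of luminal urothelium, fell by 1.08 on the log2 scale (edgeR, adjusted p = 0.013, 0.0226 and 0.00132). The summed level of the list was 3625 to 4643 CPM in vector and 2787 to 3325 CPM in oeRNF112, and most of this sum came from KRT7, KRT8 and KRT18. The values of GATA3 and PPARG, at log2 fold changes of 0.14 and 0.11, did not pass the test (edgeR, adjusted p = 0.616 and 0.403), and both were chosen after their values were seen. KRT7 kept its call in 2 of the 6 fits that left out a sample and KRT18 in 4.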

How the data were processed

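Stranded mRNA libraries of 6 T24 samples were sequenced. For each gene the authors deposited raw counts and RPKM values. The submitters' processing notes name Trimmomatic 0.36, featureCounts, Subread 1.5.1 and GRCh38, while the aligner, annotation and strand setting were not given in the sources used here. For 20637 of 20637 genes, 1 length related RPKM to the count within 0.1%, and total counts were used for RPKM with no TMM. No 2 samples were copies, as at most 1.03% of tested genes had identical counts.

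Counts were filtered by filterByExpr, scaled by TMM and tested with the quasi-likelihood functions of edgeR 4.0.16 (R 4.3.3), and p-values were Benjamini-Hochberg adjusted over the 14467 genes tested. Standard errors were the absolute log2 fold change over the root of F. Alternatives were DESeq2 1.42.0, its size factors, library totals, other filters, limma 3.58.1 on log2(RPKM + 1) or log2(RPKM + 0.1), a replicate block and each sample left out. The script was tested on simulated data. TMM factors were 0.957 to 0.988 in vector and 1.01 to 1.05 in oeRNF112.

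The members and lists were chosen with earlier results of these data known. Genes named are RNF112, the 10 members and, from each list, at most 5 called genes with the smallest p plus the 2 with the highest mean RPKM. Apart from GATA3 and PPARG, which were chosen after their values were seen, other genes are named only by their read counts or to say that they were below the filter. TBXT, MIR200CHG, CDH7, CDH9, CDH20, CTNNA2, MS4A1, CLDN5, KRT5, UPK1B, CDH2-AS1 and SNAI1-AS1 were not analysed here, and the results of some named list genes are not reported here.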

Additional observations from a re-analysis of the deposited data

How the results depend on the processing

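No EMT gene reversed its direction in any setting. The number of EMT genes called higher, 2 with all samples, was 1 with limma on log2(RPKM + 1) over genes averaging at least 1 RPKM, a filter that leaves out SNAI1, and between 1 and 3 when a sample was left out. The number called lower, 1 with all samples, was 0 with library totals, with limma on log2(RPKM + 1), on log2(RPKM + 0.1) and over genes averaging at least 1 RPKM, and with the replicate block, and between 0 and 1 when a sample was left out. In these settings CDH2 had adjusted p-values of 0.0817, 0.085, 0.0769, 0.0755 and 0.124. The cause was not tested.

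Genes called over the whole table, 2620, were 876 with the replicate block and between 1061 (without vector replicate 1) and 3387 (without vector replicate 2) when a sample was left out. The listed genes called higher, 17, were 11 with limma over genes averaging at least 1 RPKM, 7 with the replicate block and between 9 and 23 with a sample left out. Those called lower, 18, were 11 with limma on log2(RPKM + 1), 11 with limma over genes averaging at least 1 RPKM, 7 with the replicate block and between 7 and 18 with a sample left out. Of 31 named list genes, 21 lost their call in at least 1 setting and 0 reversed. Library totals and limma on RPKM moved the share of calls that were higher from 55.0% to between 70.5% and 75.4%, and library totals moved the median of all genes from 0.00267 to 0.0962. With library totals, the medians of the lists for co-repressors, TGF-beta input, other mesenchymal markers and intermediate filament partners were above 0 and no longer below it, and with limma on log2(RPKM + 0.1) the median of 5 of 15 lists changed sign.

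Deviations of samples sharing a replicate number were correlated at -0.116, -0.363 and -0.296 over genes, so the numbers do not pair them. With the replicate block SNAI2 kept its call (adjusted p = 0.0454, edgeR), as did SNAI1 (0.0452), and the block left 618 genes higher and 258 lower. At this depth TWIST1, CDH1 and CDH11 could not be compared.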
